A study of Homo sapiens with 12 samples.

Results

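A list of 40 genes of the G2 phase and of mitosis was followed across 4 related HER2-positive breast cancer lines. The 40 members were a fixed list of gene symbols, and each was read from 1 probe set, the brightest on average over the 12 arrays among those naming that gene alone. All 40 were measured, among 19775 genes in all.

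Genes of G2 and mitosis are switched on late in each cell cycle and drive entry into mitosis, attachment of chromosomes to the spindle, separation of sister chromatids and division of the cell body. Cyclin B with CDK1 is the kinase that starts mitosis, and the anaphase-promoting complex ends it by marking cyclins and securin for destruction. The late timing comes in large part from promoter elements named CHR (cell cycle genes homology region) and CCAAT box: the MuvB complex binds the CHR, repressing these genes as part of DREAM in resting cells and activating them with the factors B-MYB and FOXM1 in dividing cells. In bulk RNA, a smaller share of cells in G2 or mitosis and less of these transcripts per cell cannot be told apart.

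SKBR-3 is a human breast cancer cell line with amplified HER2 (ERBB2), a receptor tyrosine kinase. The parent line here, SKR6, is a population sorted by flow cytometry from SKBR-3 for elevated HER2, and all 4 lines share that origin. SKR6-Vector received the empty pQCXIP retrovirus and puromycin selection. SKR6CA received a retrovirus for constitutively active p65 (CAp65), a form of the NF-kB subunit RELA. SKR6LR was selected over months in rising lapatinib, from 0.2 to 5 µM, a drug that blocks the HER2 and EGFR kinases. Cells were grown for 48 hours in medium with serum before RNA was taken, and a line that the labels write as SKLR was kept in 0.2 µM lapatinib. By its name this is likely SKR6LR, in which case its comparisons set cells kept in the drug against cells without it, and selection and presence of the drug cannot be told apart. Each line had 3 biological replicates. Whether these were separate derivations is not given, so p-values measure the spread among these cultures only, and each line is 1 derived population as a model of its treatment.

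The values were log2 intensities from 3′ expression arrays, where a difference of 1 is a doubling. Over all genes, SKR6LR correlated with the other lines at 0.914 to 0.933, and the other 3 lines with each other at 0.988 to 0.990. The 7 luminal and HER2 markers were present in every line, with gene means from 8.88 to 14.99. In SKR6LR against SKR6, 4 of the 7 fell (ERBB2 -1.38, GRB7 -1.28, STARD3 -1.02 and KRT19 -0.94), KRT18 (0.63) and KRT8 (0.45) rose, and EPCAM differed by 0.11 and did not pass. The median of the 7 was -0.94. The log2 of their summed linear intensities was 16.17 to 16.39 in SKR6LR and 16.34 to 16.57 in the other lines. Markers of other cell types were summed in the same way, as the log2 of summed linear intensities. The 4 of 6 measured leukocyte markers summed to 6.68 to 6.90 in SKR6, SKR6-Vector and SKR6CA and 7.40 to 7.68 in SKR6LR. In SKR6LR against SKR6, 1 of these 4 rose (1.72), and the other 3 differed by at most 0.11 and did not pass. The 4 of 4 endothelial markers summed to 7.47 to 7.57 in SKR6, 8.67 to 8.82 in the transduced lines and 9.12 to 9.72 in SKR6LR, with CDH5 the one that rose most. The 6 of 6 fibroblast markers summed to 8.30 to 8.47 in the other lines and 9.80 to 10.16 in SKR6LR. In SKR6LR against SKR6, COL3A1 rose by 4.92 and the other 5, COL1A1 among them, did not pass the test. The 1 of 3 measured erythroid markers (HBB) stood at 6.27 to 6.64 in all lines. The part of these markers in the results was not tested. The RELA probe set differed by -0.06 between SKR6CA and SKR6-Vector (adjusted p = 0.753, limma), so it gave no check of the transgene.

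The promoters of these genes carried the sequence elements named above more often than promoters in general. RefSeq promoter windows of GRCh38.p14, from 250 bases before to 50 after the gene's start, were at hand for 34 of the 40 members. FOXM1, AURKA, BIRC5, TTK, UBE2C and TPX2 were not matched. A CHR (TTTGAA or TTTAAA on either strand, TTCAAA being TTTGAA on the other strand) was in 27 of 34 windows (79.4%), against 24.3% of the windows of 27305 genes and 14% of those of 43 genes of G1/S and DNA replication. A CCAAT box (CCAAT, or ATTGG on the other strand) was in 26 of 34 windows (76.5%), against 35.7% of all and 53.5% of the G1/S windows. Both were in 22 of 34 (64.7%), against 9.49% of all and 6.98% of the G1/S windows. Within 60 bases before to 20 after the start, a range chosen after the positions were seen, 19 of 34 windows (55.9%) held a CHR, against 6.94% of all. CHR and CCAAT letters overlapped in 1 member window and 53 of all. These are counts of letters and do not show binding.

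Below are 5 windows, written 5′ to 3′ on the gene's strand with CHR and CCAAT letters in capitals. KIF14, KIF2C, BUB1B and KIF11 are the members holding a CHR with the largest falls in any comparison, and ANLN, chosen after its values were seen, is the 1 member that rose in SKR6LR. They lie at chr1:200620702-200621001 (minus strand) for KIF14, chr1:44739587-44739886 (plus strand) for KIF2C, chr15:40160819-40161118 (plus strand) for BUB1B, chr10:92592880-92593179 (plus strand) for KIF11 and chr7:36389612-36389911 (plus strand) for ANLN, all in GRCh38.p14.
KIF14: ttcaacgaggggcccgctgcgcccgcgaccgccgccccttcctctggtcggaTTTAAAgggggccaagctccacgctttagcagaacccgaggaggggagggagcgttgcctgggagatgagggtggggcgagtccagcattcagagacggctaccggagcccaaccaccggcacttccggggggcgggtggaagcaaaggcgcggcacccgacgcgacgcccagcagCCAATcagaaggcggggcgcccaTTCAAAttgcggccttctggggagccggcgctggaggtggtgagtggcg
KIF2C: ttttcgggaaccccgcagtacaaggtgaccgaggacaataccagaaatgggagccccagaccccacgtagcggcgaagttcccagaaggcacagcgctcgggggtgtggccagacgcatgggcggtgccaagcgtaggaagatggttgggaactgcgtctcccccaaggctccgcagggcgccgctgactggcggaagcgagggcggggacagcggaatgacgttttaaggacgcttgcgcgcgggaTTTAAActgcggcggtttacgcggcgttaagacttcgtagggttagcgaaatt
BUB1B: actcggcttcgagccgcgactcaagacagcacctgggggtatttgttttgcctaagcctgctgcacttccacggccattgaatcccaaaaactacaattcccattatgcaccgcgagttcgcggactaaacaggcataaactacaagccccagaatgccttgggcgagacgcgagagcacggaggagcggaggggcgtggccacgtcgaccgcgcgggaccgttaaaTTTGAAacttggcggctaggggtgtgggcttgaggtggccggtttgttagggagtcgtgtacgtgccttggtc
KIF11: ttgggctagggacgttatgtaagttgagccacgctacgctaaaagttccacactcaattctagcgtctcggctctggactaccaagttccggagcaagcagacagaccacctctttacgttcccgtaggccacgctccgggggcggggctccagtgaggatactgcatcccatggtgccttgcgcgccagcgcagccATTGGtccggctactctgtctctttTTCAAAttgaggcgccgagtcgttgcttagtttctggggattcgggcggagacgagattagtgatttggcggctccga
ANLN: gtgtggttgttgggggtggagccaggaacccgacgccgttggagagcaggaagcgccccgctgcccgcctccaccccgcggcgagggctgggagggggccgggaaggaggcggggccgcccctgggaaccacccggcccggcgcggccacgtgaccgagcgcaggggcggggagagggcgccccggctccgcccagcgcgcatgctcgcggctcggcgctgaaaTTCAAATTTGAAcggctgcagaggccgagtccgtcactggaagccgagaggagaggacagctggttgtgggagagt

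Counting the start base as 0, the CHR began at -3 in KIF2C, -23 in BUB1B and -28 in KIF11. KIF14 had one at 1 and another at -198, with a CCAAT box at -22, and KIF11 had its CCAAT box at -53. ANLN had CHR letters at -26 and directly after them at -20, and no CCAAT box in this window. AURKB, BUB1, CCNA2, MYBL2 and NEK2, which fell in SKR6LR, held no CHR letters in their windows.

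Most members were highest in SKR6 and lowest in SKR6LR, with the 2 transduced lines between. SKR6 had the highest mean in 38 of 40 members and SKR6LR the lowest in 37. From high to low, 20 members ran SKR6, SKR6CA, SKR6-Vector, SKR6LR, and 17 ran SKR6, SKR6-Vector, SKR6CA, SKR6LR. The transduced lines, which are neighbours in these orders, differed by a call in 4 members in the main fit (CDC25B, PLK1, PTTG1 and BUB1). The 3 members outside these orders were CDC25B, ANLN and KIF23, with ANLN and KIF23 highest in SKR6LR.

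**Figure D1:**
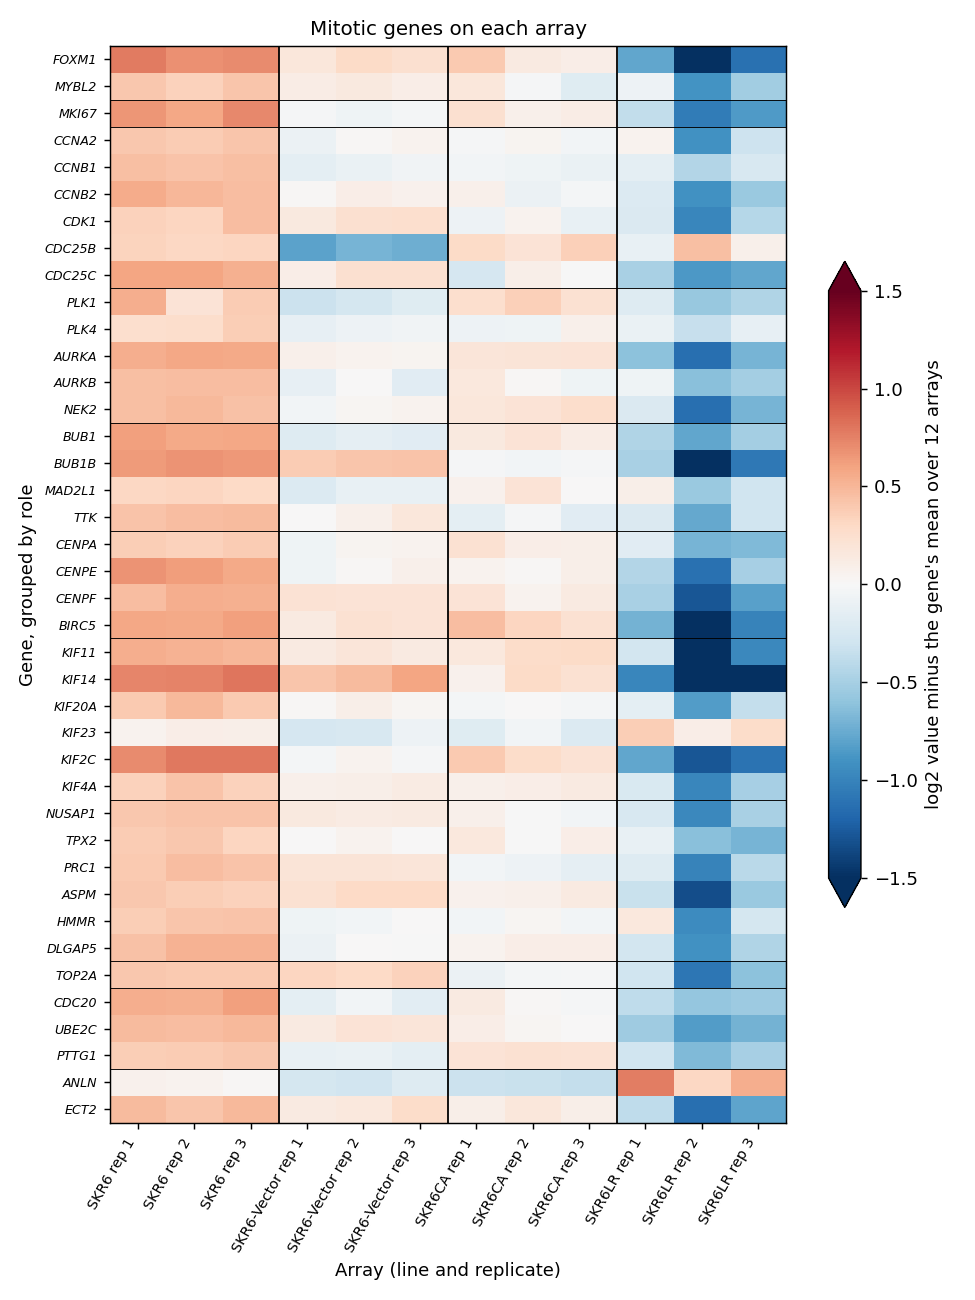
Deviation of each of the 40 members (rows) from its own mean over 12 arrays, on the log2 scale, for the 3 arrays of each of the 4 lines (columns). SKR6 is above the mean in all 40 rows, and the mean of the SKR6LR arrays is below it except for ANLN, KIF23 and CDC25B; SKR6LR replicate 1 is also above it for CCNA2, MAD2L1 and HMMR.

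In SKR6LR against SKR6, 37 of 40 members fell and 1 rose (ANLN). CDC25B (-0.18) and KIF23 (0.17) did not pass the test. Over all 19775 genes, 31.0% fell and 21.4% rose by the same rule (limma, adjusted p under 0.05). The median member difference was -1.01, a 2.02-fold lower level, with a range from -2.21 to 0.50, against a median of -0.06 over all genes. Of all calls 40.8% were higher, and 51.4% after cyclic loess normalisation, which left 37 members lower and 2 higher. In 20 members the fall was at least 1 on the log2 scale, as in 1583 of all 19775 genes. In 37 members all SKR6LR arrays lay below all SKR6 arrays, against 34.9% of all genes. The fit pooled the spread over all lines, although the median member SD was 0.348 in SKR6LR and 0.0298 in SKR6. SEs and adjusted p-values given for SKR6LR against SKR6 are thus likely too small for members with such spread. With only the compared arrays, limma's adjusted p for CCNB2 was 0.00105, against 1.4e-05 in the main fit. Member calls in that setting were again 37 lower and 1 higher, where 5452 and 3836 of all genes were called.

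Both transcription factors of the list fell. FOXM1, the forkhead factor that activates G2/M genes, fell the more of the pair. It measured 10.15, 10.07 and 10.09 in SKR6, 9.55, 9.66 and 9.62 in SKR6-Vector, 9.77, 9.51 and 9.48 in SKR6CA, and 8.60, 7.79 and 8.26 in SKR6LR. All SKR6LR arrays were below those of every other line. The difference from SKR6 was -1.89 (SE 0.155, adjusted p = 3.3e-07, limma), or 3.71-fold. Its only probe set has a name ending in _x_at (202580_x_at), the suffix for probes that can match other transcripts. MYBL2, which encodes B-MYB, measured 10.38, 10.33 and 10.40 in SKR6 and 9.91, 9.09 and 9.46 in SKR6LR, a fall of 0.88 (SE 0.157, adjusted p = 0.000343, limma).

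MKI67, whose protein Ki-67 marks cycling cells, fell in all 3 derived lines. Its values were 10.99, 10.91 and 11.05 in SKR6, 10.31, 10.26 and 10.30 in SKR6-Vector, 10.56, 10.40 and 10.43 in SKR6CA, and 9.96, 9.28 and 9.48 in SKR6LR. No array of a derived line reached the SKR6 range, and SKR6LR differed from SKR6 by -1.41 (SE 0.131, adjusted p = 1.03e-06, limma), or 2.66-fold.

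Of the 6 cyclins, CDK1 and phosphatases, 5 fell in SKR6LR. CCNB1, the main mitotic cyclin, measured 12.09, 12.06 and 12.08 in SKR6 and 11.49, 11.19 and 11.39 in SKR6LR, where it fell by 0.72 (SE 0.0714, adjusted p = 2.02e-06, limma). CCNB2 measured 11.62, 11.56 and 11.51 in SKR6 and 10.85, 10.15 and 10.50 in SKR6LR (-1.06). CCNA2, the cyclin of S phase and G2, measured 11.34, 11.33 and 11.36 in SKR6 and 10.99, 10.03 and 10.63 in SKR6LR (-0.79, adjusted p = 0.00152). The SKR6LR arrays of these cyclins lay below all SKR6 arrays but spread over up to 1 log2 step among themselves. CDK1, their kinase partner, measured 13.09, 13.07 and 13.21 in SKR6 and 12.53, 11.77 and 12.31 in SKR6LR (-0.92, SE 0.145). CDC25C, a phosphatase that activates CDK1, measured 8.17, 8.16 and 8.11 in SKR6 and 7.10, 6.71 and 6.80 in SKR6LR (-1.28). Its sister phosphatase CDC25B did not follow: 11.57, 11.55 and 11.56 in SKR6 overlapped 11.13, 11.69 and 11.31 in SKR6LR.

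All 5 mitotic kinases fell in SKR6LR. AURKA, the spindle pole kinase, differed by -1.38 and NEK2, a centrosome kinase, by -1.14. AURKB of the chromosomal passenger complex differed by -0.86, PLK1 by -0.78, and PLK4, which starts centriole duplication, by -0.48. All 4 spindle checkpoint genes fell as well. BUB1B (BubR1) measured 11.29, 11.32 and 11.30 in SKR6 and 10.16, 9.10 and 9.57 in SKR6LR, a difference of -1.69 (SE 0.183, adjusted p = 4.42e-06, limma). BUB1 differed by -1.16, TTK (MPS1) by -0.88 and MAD2L1 by -0.56. The fall of BUB1B was the largest and most uneven of the 4 among SKR6LR cultures.

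All 4 centromere and passenger genes fell. BIRC5 (survivin), a passenger subunit, measured 11.44, 11.43 and 11.47 in SKR6, 10.99, 11.09 and 11.06 in SKR6-Vector, 11.32, 11.17 and 11.08 in SKR6CA, and 10.15, 9.24 and 9.86 in SKR6LR. The difference of SKR6LR from SKR6 was -1.70 (SE 0.168, adjusted p = 1.92e-06, limma), and its arrays lay below every other array. CENPF differed by -1.38, the kinetochore motor CENPE by -1.31 and the centromeric histone CENPA by -0.88.

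Kinesins are motor proteins that move along microtubules, and 5 of 6 fell. KIF14, which acts in cytokinesis, showed the largest fall of all members. It measured 8.99, 9.01 and 9.07 in SKR6, 8.67, 8.73 and 8.85 in SKR6-Vector, 8.32, 8.55 and 8.49 in SKR6CA, and 7.28, 6.40 and 6.76 in SKR6LR. The SKR6LR difference was -2.21 (SE 0.162, adjusted p = 1.15e-07, limma), or 4.62-fold. KIF2C (MCAK), which takes microtubules apart at kinetochores, measured 11.76, 11.85 and 11.85 in SKR6, 11.03, 11.12 and 11.05 in SKR6-Vector, 11.45, 11.34 and 11.27 in SKR6CA, and 10.29, 9.78 and 9.95 in SKR6LR. Its 4 lines did not overlap, and SKR6LR differed from SKR6 by -1.82 (SE 0.105, adjusted p = 1.16e-08, limma). KIF11 (Eg5), which pushes spindle poles apart, differed by -1.43, KIF4A by -0.94 and KIF20A by -0.87.

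All 6 spindle assembly genes fell. ASPM, which acts at spindle poles, differed by -1.12, DLGAP5 by -1.04, NUSAP1 by -0.98, PRC1, which bundles central spindle microtubules, by -0.96, TPX2, the activator of AURKA, by -0.84 and HMMR by -0.75. TOP2A, the topoisomerase that untangles sister chromatids, differed by -1.06. The 3 anaphase genes also fell. UBE2C, the ubiquitin-conjugating enzyme of the anaphase-promoting complex, differed by -1.16, the complex's activator CDC20 by -1.06, and PTTG1 (securin) by -0.87. The PTTG1 probe set is 203554_x_at, which may also match the related PTTG genes.

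Besides CDC25B, ANLN and KIF23 did not fall. ANLN (anillin), a scaffold of the contractile ring, measured 12.51, 12.50 and 12.47 in SKR6, 12.18, 12.16 and 12.25 in SKR6-Vector, 12.12, 12.11 and 12.09 in SKR6CA, and 13.22, 12.76 and 12.99 in SKR6LR. All SKR6LR arrays were above all others, and the difference from SKR6 was 0.50 (SE 0.0909, adjusted p = 0.000437, limma), a 1.41-fold rise. Its second probe set rose by 0.62. KIF23, a kinesin of the central spindle, measured 10.07, 10.12 and 10.11 in SKR6 and 10.39, 10.12 and 10.29 in SKR6LR (0.17, adjusted p = 0.102), and its second probe set differed by 0.24. Without SKR6LR replicate 2 KIF23 was called higher, at 0.24, and CDC25B lower, at -0.34. ECT2, the RhoA activator that places the contractile ring, fell by 1.22.

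**Figure D2:**
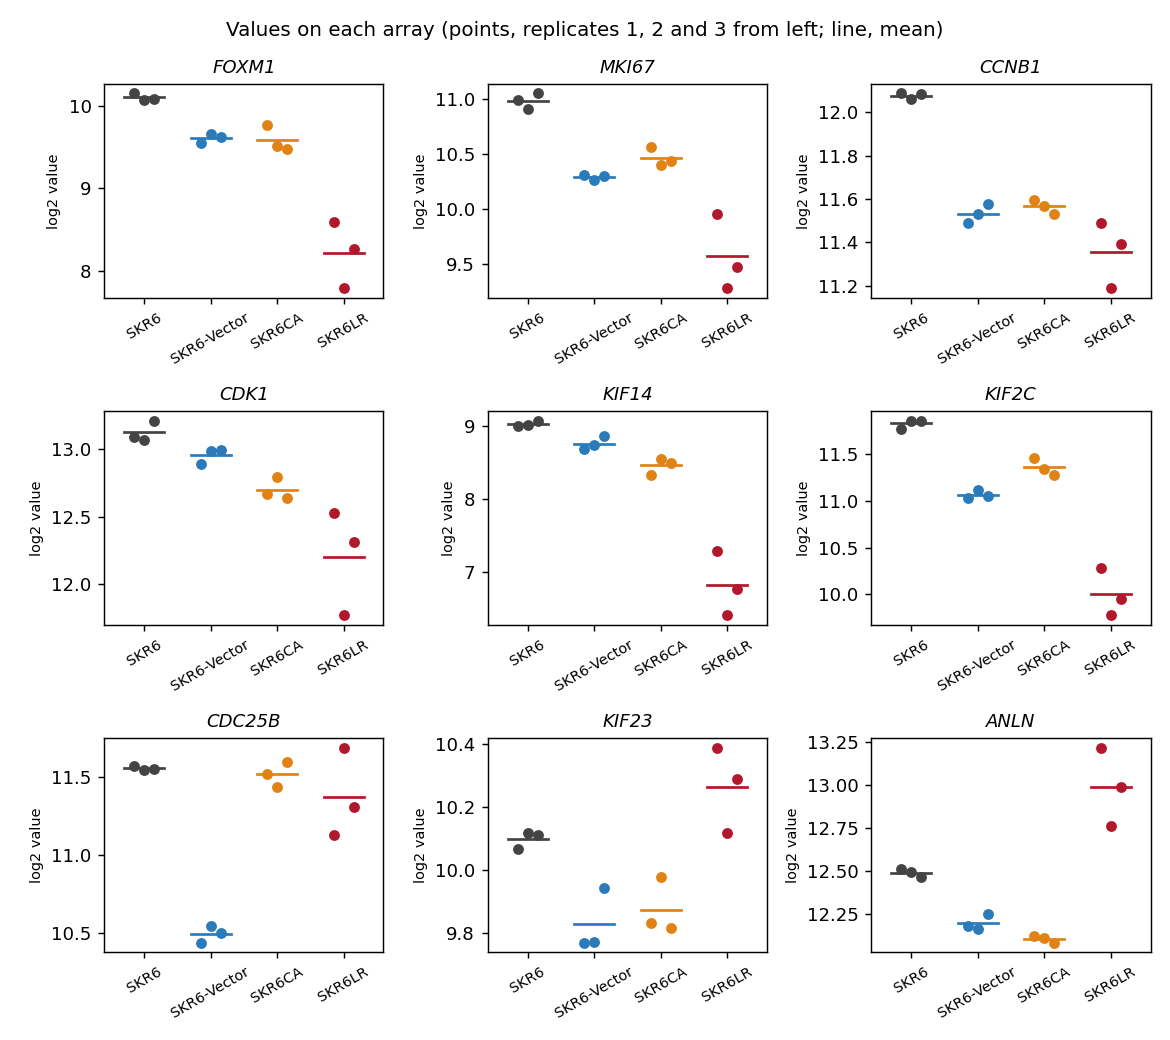
Log2 level on each of the 12 arrays for FOXM1, MKI67, CCNB1, CDK1, KIF14, KIF2C, CDC25B, KIF23 and ANLN, with points for arrays and a bar for the mean of each line. The SKR6LR mean is lowest for the first 6 genes and highest for KIF23 and ANLN, and SKR6LR overlaps SKR6 for CDC25B.

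The 3 SKR6LR cultures differed from each other far more in these genes than the cultures of the other lines did. The median SD of a member was 0.348 in SKR6LR, 0.0298 in SKR6, 0.0441 in SKR6-Vector and 0.0725 in SKR6CA, against 0.122, 0.0621, 0.0641 and 0.0772 over all genes. Replicate 1 was highest and replicate 2 lowest, with replicate 3 between, in 38 of 40 members (95%), against 21.8% of all genes. The G1/S genes shared this order in 47 of 51 (92.2%). Against the SKR6 mean, the median member was at -0.68 in replicate 1, -1.36 in replicate 2 and -0.99 in replicate 3. The all-gene medians were -0.06, -0.07 and -0.05. Each culture alone had 37 or 38 of 40 members below all SKR6 arrays. The share of all genes below in this way was not counted, and 1 array against 3 is easier to meet than 3 against 3. CDKN1A, an inhibitor of cyclin-dependent kinases singled out after its values were seen, measured 8.96, 9.62 and 9.25 in these 3 cultures. That is 1 gene on 3 arrays, and other such inhibitors were not set against this order. The part of CDKN1A in the results was not tested. The actin control's 3′ minus 5′ difference, a sign of RNA quality, was 2.32 in replicate 3 and 1.03 to 1.73 in the other 11 arrays. Replicate 2, lowest for the members, had 1.03, the lowest of all 12. The GAPDH control's difference was 0.159, 0.229 and 0.513 in SKR6LR replicates 1, 2 and 3 and 0.123 to 0.193 in the other lines, so replicates 2 and 3 were above all arrays of those lines. The part of RNA quality in the results was not tested.

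**Figure D3:**
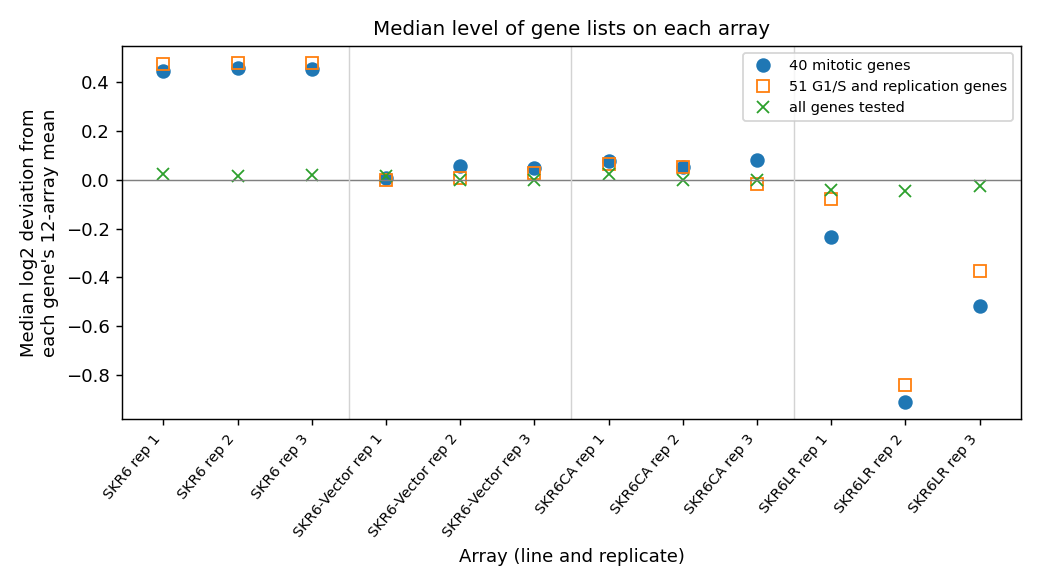
Median deviation from the 12-array mean (log2) on each array for the 40 members, 51 G1/S genes and all 19775 genes. The members sit at 0.444 to 0.457 in SKR6 and at -0.234, -0.910 and -0.516 in the 3 SKR6LR cultures, while the all-gene median stays near 0.

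The empty vector line also had less of these transcripts than its parent. In SKR6-Vector against SKR6, 23 of 40 members fell and 0 rose (limma, also 0 higher and 28 lower at an unadjusted p under 0.05), where 13.4% of all genes fell and 12.2% rose. The median difference was -0.38, a 1.30-fold lower level, with a range from -1.07 to -0.07, and the all-gene median was -0.02. In all 40 members the 3 SKR6-Vector arrays lay below the 3 SKR6 arrays, against 25.9% of all genes. The spread in this fit was pooled over the 4 lines, SKR6LR included. With only the compared arrays 38 members were called lower, where 3889 of all 19775 genes were. Without SKR6 replicate 1, SKR6 replicate 2 or SKR6-Vector replicate 1 the count of members was 14, where 1999, 2060 or 1976 of all genes fell.

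The largest falls were in CDC25B, KIF2C, BUB1 and MKI67. CDC25B, which triggers the first CDK1 activity at the centrosomes, measured 10.44, 10.54 and 10.50 in SKR6-Vector, below its 11.55 to 11.57 in SKR6 (-1.07, SE 0.111, adjusted p = 1.78e-05, limma). KIF2C differed by -0.76 (SE 0.105). BUB1, the checkpoint kinase, measured 10.29, 10.25 and 10.25 in SKR6 and 9.49, 9.54 and 9.51 in SKR6-Vector (-0.75, SE 0.0759, adjusted p = 1.4e-05, limma). MKI67 differed by -0.70 (SE 0.131). By role, the falls covered 4 of 6 cyclins, CDK1 and phosphatases (CCNB1 -0.54, CCNB2 -0.44), 4 of 5 kinases, 3 of 4 checkpoint genes, 2 of 4 centromere genes and 3 of 3 anaphase genes (CDC20 -0.68). Among spindle assembly genes 1 of 6 fell (DLGAP5, -0.53). FOXM1 fell by 0.49 (adjusted p = 0.0337), while MYBL2 at -0.27, CCNA2 at -0.41 (10.86, 10.96 and 10.99) and CDK1 at -0.17 (12.89, 12.98 and 12.99) did not pass.

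The active p65 line was below SKR6 by a like median amount. In SKR6CA against SKR6, 22 of 40 members fell and 0 rose (limma, 0 higher and 29 lower at an unadjusted p under 0.05), with 14.4% of all genes lower and 9.97% higher. The median was -0.41, or 1.33-fold, from -0.68 to -0.04, and in 38 members the arrays did not overlap, against 26.2% of all genes. With only the compared arrays 38 members were called lower, where 3825 of all 19775 genes were. Without any 1 SKR6 replicate or SKR6CA replicate 3 the count of members was 13, where 2116 to 2229 of all genes fell. The 3 comparisons against SKR6 share its arrays, so they are not independent of each other.

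BUB1B, CDC25C, CENPE and KIF14 had the largest falls in SKR6CA. BUB1B measured 10.62, 10.60 and 10.63, against 11.03, 11.06 and 11.07 in SKR6-Vector and about 11.3 in SKR6 (-0.68 from SKR6, SE 0.183, adjusted p = 0.0159, limma). CDC25C measured 7.33, 7.67 and 7.57 (-0.63, SE 0.105) and KIF14 differed by -0.57. CENPE measured 10.31, 10.26 and 10.21 in SKR6, 9.69, 9.65 and 9.73 in SKR6CA and 9.57, 9.66 and 9.72 in SKR6-Vector, so both transduced lines overlapped below the parent. CDC25B, at 11.52, 11.44 and 11.60, overlapped SKR6 (-0.04).

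**Figure D4:**
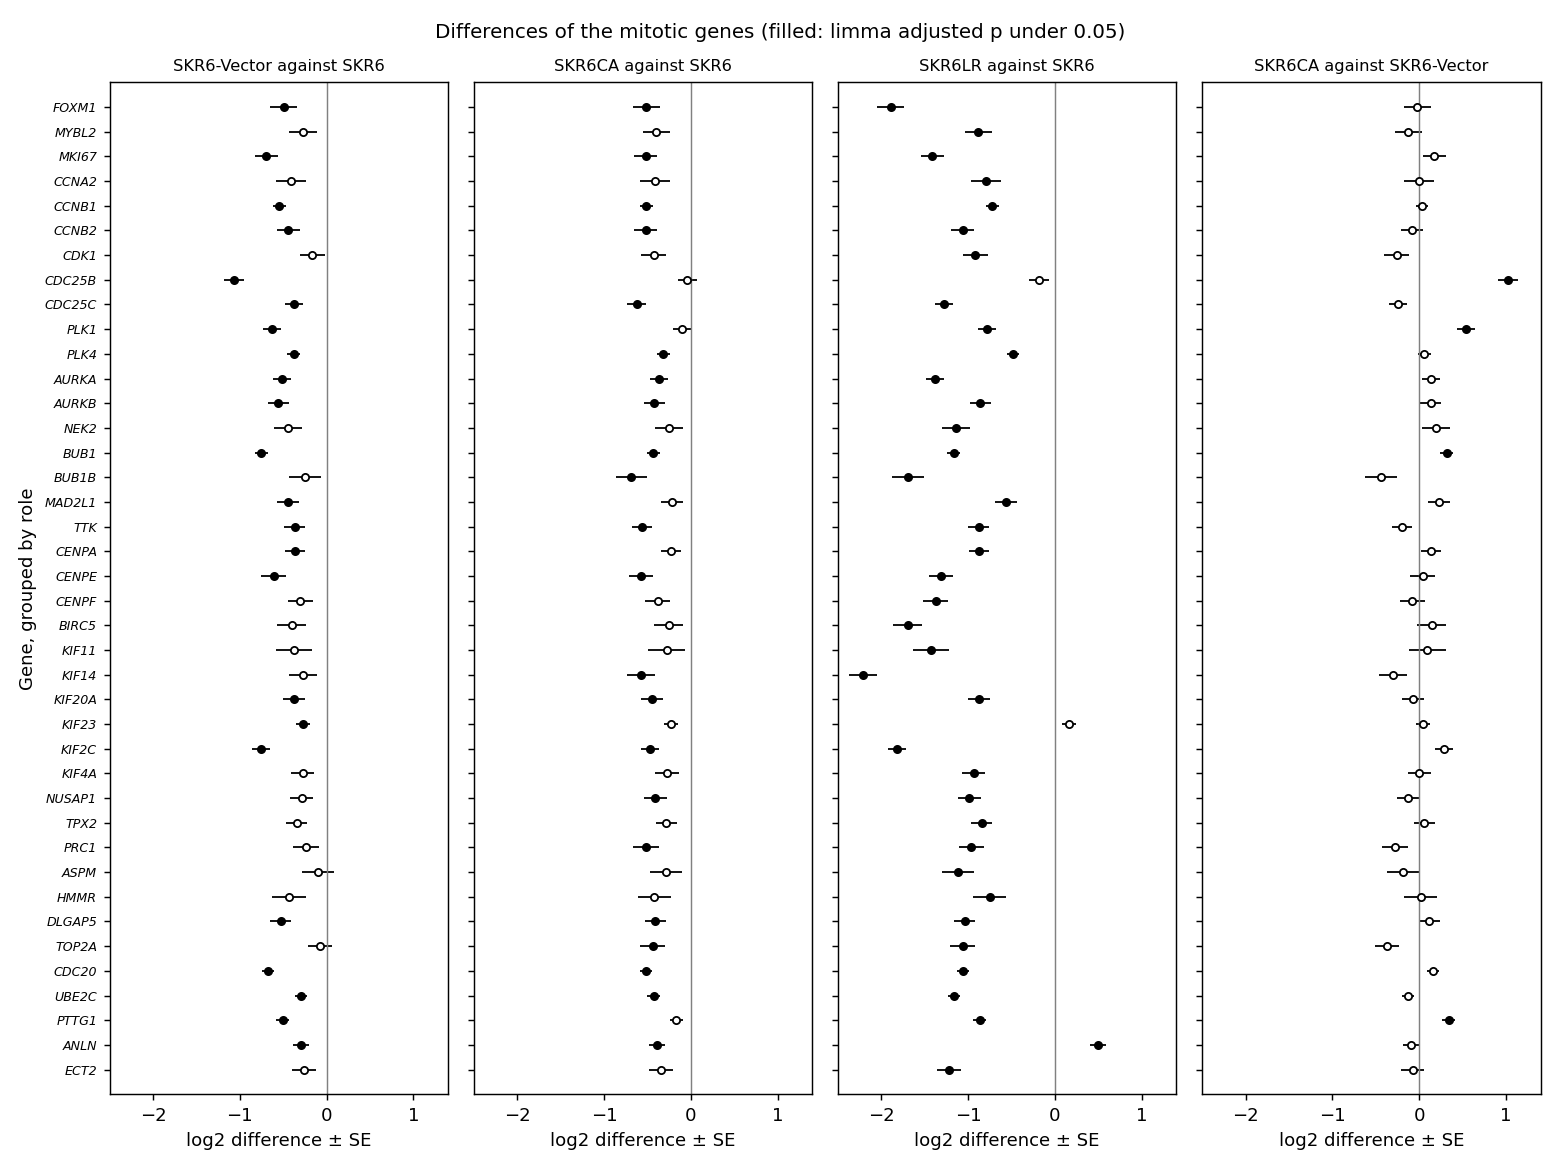
Log2 difference with its SE for each of the 40 members in the 4 comparisons (panels), filled where limma's adjusted p was under 0.05. Nearly all points lie left of 0 against SKR6, and the SKR6CA against SKR6-Vector panel is centred near 0 with 4 filled points.

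Against the vector control, few of these genes were called in the main fit, and more were with the spread of only the compared arrays. In SKR6CA against SKR6-Vector, 4 of 40 members rose (CDC25B, PLK1, PTTG1 and BUB1) and 0 fell (limma, 6 higher and 3 lower at an unadjusted p under 0.05), where 11.7% of all genes rose and 14.9% fell. The median was 0.03 with a range from -0.44 to 1.03. The members' share of rises was near that of all genes. In 12 members all SKR6CA arrays lay above all SKR6-Vector arrays and in 12 below, against 21.3% and 24.2% of all genes. With the spread of only the compared arrays 9 members rose and 6 fell, where 2982 of all 19775 genes rose and 3647 fell. Without SKR6LR replicate 1 or 2, which are in neither group, 4 or 6 members fell, where 3400 or 3455 of all genes fell. Of all calls 43.9% were higher, and 56.2% after centring each array on its median.

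CDC25B stood at 11.52, 11.44 and 11.60 in SKR6CA and 10.44, 10.54 and 10.50 in SKR6-Vector, a 2.04-fold difference (1.03, SE 0.111, adjusted p = 2.35e-05, limma). All SKR6-Vector arrays of CDC25B lay below every array of the other 3 lines. PLK1, the kinase that drives mitotic entry and exit, measured 7.08, 6.74 and 6.91 in SKR6, 6.20, 6.27 and 6.35 in SKR6-Vector, 6.78, 6.89 and 6.76 in SKR6CA, and 6.34, 5.96 and 6.08 in SKR6LR (SKR6CA against SKR6-Vector 0.54, SE 0.104, adjusted p = 0.00194, limma). PTTG1 measured 12.28, 12.29 and 12.29 in SKR6CA and 11.95, 11.97 and 11.92 in SKR6-Vector (0.34, adjusted p = 0.00532). BUB1 measured 9.82, 9.89 and 9.80 against 9.49, 9.54 and 9.51 (0.32, adjusted p = 0.0069), and lost the call when its probe sets were averaged (0.12). The 36 others ranged from -0.44 to 0.29. FOXM1 differed by -0.02, with a 95% interval from -0.36 to 0.32, and MKI67 by 0.18, from -0.11 to 0.46. Neither passed the test, and differences within these intervals are not excluded.

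SKR6LR was also below the transduced lines, by means alone and with no test. In 30 members all its arrays lay below all SKR6-Vector arrays (32.2% of all genes), and in 32 below all SKR6CA arrays (31.3% of all genes), with median differences of -0.64 in each case. The members that overlapped include CCNB1, for which SKR6LR replicate 1, at 11.49, equalled the lowest SKR6-Vector array.

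Other mitotic genes, from lists that held none of the 40, also fell in most cases in SKR6LR. Of 82 measured genes of the kinetochore, of condensin, cohesin and chromatid separation, and of the spindle and cytokinesis, 74 fell and 3 rose in SKR6LR, with a median of -0.88. These are 90.2% and 3.66%, where 31.0% of all genes fell and 21.4% rose. STMN1, a microtubule-destabilising protein (-2.74), the NDC80 complex subunit SPC24 (-2.61) and the separase gene ESPL1 (-2.59) had the largest falls. CENPH (0.62), MASTL (0.52) and MIS12 (0.30) rose. Against SKR6, 41 of 82 fell in SKR6-Vector, led by CENPW (-0.93), and 45 in SKR6CA, led by CENPI (-1.07), with 0 higher in either by limma, also at an unadjusted p under 0.05. The shares lower were 50% and 54.9%, against 13.4% and 14.4% of all genes. In SKR6CA against SKR6-Vector 12 of the 82 fell (14.6%) and 6 rose (7.32%), near or under the 14.9% and 11.7% of all genes, with CENPI 2.01-fold lower and TROAP differing by 0.49. Of 16 subunits and regulators of the anaphase-promoting complex, 11 fell (68.8%) and 1 rose (6.25%) in SKR6LR with a median of -0.36.

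The regulators upstream of the members moved in both directions. Of 13 DREAM and MuvB genes, 8 fell (61.5%) and 5 rose (38.5%) in SKR6LR against SKR6, where 31.0% of all genes fell and 21.4% rose. The pocket protein genes RBL1 (-1.86) and RB1 (-1.64) fell, while TFDP2 (1.77) and E2F5 (1.67) rose. Against SKR6, 1 fell and 3 rose in SKR6-Vector (7.69% and 23.1%), where 13.4% of all genes fell and 12.2% rose. In SKR6CA against SKR6, 2 fell and 1 rose (15.4% and 7.69%), near the 14.4% and 9.97% of all genes. Of 10 measured G2 checkpoint and brake genes, 4 fell (40%) and 6 rose (60%) in SKR6LR against SKR6. GADD45A, a stress-induced gene whose protein can inhibit CDK1, rose by 2.64 and CDKN1A by 1.36, and CDKN1B fell by 2.06. CDKN1A was also higher than in SKR6 in SKR6-Vector (1.18) and SKR6CA (1.04). It measured 7.93, 7.83 and 7.99 in SKR6, 9.22, 9.04 and 9.02 in SKR6-Vector, and 8.97, 8.94 and 8.96 in SKR6CA. All derived arrays of CDKN1A were thus above the parent, the reverse of most members. The other brake genes did not share this pattern. Against SKR6, 2 of the 10 rose and 3 fell in SKR6-Vector, and 2 rose and 4 fell in SKR6CA. The rises were CDKN1A and CDC14B in SKR6-Vector, and CDKN1A and GADD45A in SKR6CA. CDC14B rose by 1.86 in SKR6LR against SKR6 and differed by -1.58 in SKR6CA against SKR6-Vector.

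The fall was not limited to G2 and mitosis. Of 51 measured G1/S and DNA replication genes, 43 fell and 2 rose in SKR6LR with a median of -0.94, 27 fell in SKR6-Vector (-0.44) and 31 in SKR6CA (-0.42). The shares lower were 84.3%, 52.9% and 60.8%, against 31.0%, 13.4% and 14.4% of all genes. E2F8, a repressor of the E2F family (-4.06), and the thymidine kinase TK1 (-2.71) had the largest falls in SKR6LR. TK1 measured 11.94, 11.87 and 11.89 in SKR6, 11.93, 11.98 and 11.97 in SKR6-Vector, and 9.49, 8.94 and 9.17 in SKR6LR, so this gene was low in SKR6LR without being low in SKR6-Vector. Between SKR6LR and SKR6 the members' median of -1.01 and that of the G1/S genes lay close together.

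Most other probe sets of the members gave the same direction. The 40 genes had 81 single-gene probe sets, and of the 41 others, on 23 genes, 38 had the sign of the chosen one in SKR6LR against SKR6, 38 in SKR6-Vector and 36 in SKR6CA against SKR6, and 31 in SKR6CA against SKR6-Vector. CCNB2 was the 1 gene with called probe sets of opposite sign: 202705_at fell by 1.06 in SKR6LR and 232768_at, with a mean of 4.41, rose by 0.48. For CDC25C, 217010_s_at also fell (-1.48), and the low 216914_at (mean 4.21) differed by 0.03. For MAD2L1, 236312_at was 0.76 higher in SKR6CA than in SKR6-Vector, where the chosen probe set differed by 0.23 and was not called.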

How the data were processed

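Total RNA from 12 cultures was primed with oligo-dT, transcribed with T7 polymerase into biotin-labelled RNA, per the labels' protocols, and read on 3′ arrays of 54675 probe sets. The deposited values are log2 intensities made by the authors with RMA, per the submitters' processing notes, which also name limma, with no versions stated in the sources used here. RMA sets each level relative to the other arrays and compresses differences near background. Array medians were 5.74 to 5.77; low values carry no detection call, and the number of arrays limits the precision.

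Gene names came from the platform annotation of 2016. It listed 42898 probe sets, 41097 with 1 gene and 1801 with several, and 11777 others were unnamed here. Each of 19775 genes was read from its brightest single-gene probe set, without a filter. Limma 3.58.1 in R 4.3.3 (lmFit, eBayes) fitted a mean per line on all 12 arrays, with Benjamini-Hochberg adjustment over all genes and a call at an adjusted p under 0.05. Intervals are 95%. The fit was tested on simulated data with the same spread in all lines, so that test did not cover the wider spread of SKR6LR.

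The members and gene lists were chosen with earlier results of these data known. Values on all arrays were given for FOXM1, MYBL2, MKI67, 3 cyclins, CDK1 and up to 4 called members per direction and comparison with the largest differences; for other lists, up to 3 genes. CDKN1A, TK1 and CENPE arrays, ANLN's promoter and members with second probe sets were singled out after their values were seen. Other settings tried were a replicate block, each array left out, median centring, cyclic loess, line weights, a variance trend, only compared arrays, a low-value filter, probe set choices and a stricter threshold. Promoters are RefSeq windows of GRCh38.p14.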

Additional observations from a re-analysis of the deposited data

How the results depend on the processing

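Leaving out 1 array at a time, members called lower ranged from 14 to 34 in SKR6-Vector against SKR6, where 1976 to 3238 of all 19775 genes were. In SKR6CA against SKR6 they ranged from 13 to 33, where 2116 to 3549 of all genes were. In SKR6CA against SKR6-Vector they ranged from 0 to 6, where 2417 to 3455 of all genes were. Members called higher in SKR6LR against SKR6 ranged from 1 to 2, where 3947 to 4427 of all genes were. With 1 weight per line, 37 fell in SKR6-Vector and 36 in SKR6CA against SKR6, where 4040 and 4004 of all genes did. With these weights 7 rose and 6 fell in SKR6CA against SKR6-Vector, where 3095 and 3762 of all genes did. With only the compared arrays the member counts were 38, 38, 9 and 6. The all-gene counts were then 3889, 3825, 2982 and 3647. Without _x_at and _s_at probe sets, which left 32 members, 14 fell in SKR6-Vector against SKR6 and 2 rose in SKR6CA against SKR6-Vector. Of all genes kept in that setting, 1949 fell in the first comparison and 1784 rose in the second. At an adjusted p under 0.01, 14 fell in SKR6-Vector and 10 in SKR6CA against SKR6, where 1674 and 1779 of all genes did. Cyclic loess called 2 higher in SKR6LR against SKR6, where the share of higher calls over all genes was 51.4%, against 40.8% as deposited. CDC25C changed sign without _x_at and _s_at probe sets, to 0.027 in SKR6LR, 0.031 in SKR6-Vector and 0.097 in SKR6CA against SKR6 (adjusted p = 0.837, 0.872 and 0.537, limma). The low-value filter left 39 members, without PLK1. Averaging probe sets took the SKR6LR call from CCNB2 (-0.18). The causes were not tested. Correlations of same-numbered arrays were low, from -0.033 to 0.095, and the main fit did not pair the samples. With the replicate block the members called were 4 higher and 0 lower in SKR6CA against SKR6-Vector, 37 lower and 1 higher in SKR6LR, 23 lower in SKR6-Vector and 22 lower in SKR6CA against SKR6, the counts without it. In SKR6-Vector and SKR6 6 of 6 arrays correlated best with their own number, with correlations from 0.016 to 0.025. This held for 3 of 6 arrays in SKR6CA and SKR6-Vector and for 2 of 6 in each other comparison. Pairing by number thus stays possible for SKR6-Vector and SKR6.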
